A study of Mus musculus with 4 samples.

Results

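The miR-29 family comprised 7 of the 1326 mature microRNAs (miRNAs) listed for these retina libraries. They were taken by name, as every listed arm of mmu-miR-29a, mmu-miR-29b and mmu-miR-29c: 3 arms from the 3′ side of the hairpin (3p) and 4 from the 5′ side (5p). No measured value entered this rule, but earlier results of these data were known when the family was chosen. At E18.5, late in mouse gestation, retina was compared between Ptf1a+/- embryos, heterozygous for a loss of Ptf1a (2 libraries), and Ptf1a-/- embryos, without a functional copy (2 libraries). Retinal progenitors need the transcription factor Ptf1a to give rise to amacrine and horizontal cells. The sources used here name neither the strain nor the make of the Ptf1a alleles. No wild-type retina was analysed here, so every difference is against a heterozygote. The libraries held small RNA only, and Ptf1a mRNA could not be used to check the genotypes. Nothing in the labels ties each library to its own embryo, so p-values reflect the variation among the 4 libraries, part or all of which may be technical.

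A mature miRNA guides an Argonaute protein to mRNAs through base pairing of its seed, bases 2 to 8 counted from the 5′ end, and lowers their stability and translation. The 3p arms of miR-29 are the main products of the family and share a seed. In brain, miR-29 rises strongly as neurons mature and is known to repress pro-apoptotic genes of the BH3-only group, DNA methyltransferases and collagens. In embryonic neural tissue it is usually scarce. The family can thus be read beside other miRNAs that rise in differentiating neurons and those that accompany dividing progenitors.

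The arms come from 4 hairpin genes in 2 pairs. Mir29a (chr6:31062660-31062747) and Mir29b-1 (chr6:31063023-31063093) lie on the minus strand with 275 bases between them, and Mir29b-2 (chr1:195037040-195037120) and Mir29c (chr1:195037547-195037634) on the plus strand with 426 bases between them (GRCm38). In GENCODE M21, Mir29a overlaps no other annotated gene, and Mir29b-1 overlaps the edge of an exon of the long noncoding RNA gene Gm27019. Mir29b-2 and Mir29c lie inside an exon of the noncoding RNA gene A330023F24Rik and antisense to an untranslated part of an exon of Cd46. All 7 members matched a RefSeq mature sequence (GRCm38.p6). The 3p arms are shown first because they hold most of the family's reads and because a shared seed makes them near copies. Capitals mark bases 2 to 8.
miR-29a-3p: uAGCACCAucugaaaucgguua
miR-29b-3p: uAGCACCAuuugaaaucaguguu
miR-29c-3p: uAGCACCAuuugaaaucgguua

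Among 1679 RefSeq mouse mature miRNAs, 3 carried the seed AGCACCA, and they were these 3p arms. miR-29a-3p and miR-29c-3p differ by 1 substitution over their 22 bases, C10U (position counted from 1 at the 5′ end, the base of miR-29a-3p first). miR-29b-3p differs from miR-29c-3p by 3 substitutions over the first 22 bases, A18G, G21U and U22A. Its sequence is the same from Mir29b-1 and Mir29b-2, so its reads cannot be assigned to either gene. The counts of all 7 members were whole in every library, while other listed miRNAs had fractional values. The 5p arms are shown because their seeds differ from each other and because, unlike the 3p arm, they tell Mir29b-1 from Mir29b-2. The seed of miR-29b-2-5p is shared with miR-6338.
miR-29a-5p: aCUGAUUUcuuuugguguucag
miR-29b-1-5p: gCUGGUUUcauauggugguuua
miR-29b-2-5p: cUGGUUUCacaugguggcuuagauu
miR-29c-5p: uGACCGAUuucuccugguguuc

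The sequence found most often in the retina was not always the annotated one. The deposited table gives 1 such sequence per miRNA and library, without the number of reads behind it. For miR-29a-3p it began 1 base upstream in all 4 libraries and lacked the last annotated base. For miR-29b-3p it began 1 base upstream in 3 libraries and at the annotated base in Ptf1a-/- replicate 2, which had 10 counts. For miR-29c-3p it began at the annotated base in all 4 libraries, and for miR-29c-5p it began 2 bases downstream in all 4. The miR-29c-3p form was the full annotated sequence in Ptf1a-/- replicate 1 and lacked the last annotated base in the other libraries. The forms below are as deposited, with DNA letters and capitals again at bases 2 to 8, and show how a shifted start changes those bases.
miR-29a-3p, all libraries: cTAGCACCatctgaaatcggtt
miR-29b-3p, Ptf1a+/- replicates 1 and 2 and Ptf1a-/- replicate 1: cTAGCACCatttgaaatcagtgt
miR-29b-3p, Ptf1a-/- replicate 2: tAGCACCAtttgaaatcagtgtt
miR-29c-3p, Ptf1a+/- replicates 1 and 2 and Ptf1a-/- replicate 2: tAGCACCAtttgaaatcggtt
miR-29c-5p, all libraries: aCCGATTTctcctggtgttcaga

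The added base is encoded in the hairpins. In that of Mir29a, shown with the annotated arms in capitals, a c stands directly before the 3p arm.
Mir29a: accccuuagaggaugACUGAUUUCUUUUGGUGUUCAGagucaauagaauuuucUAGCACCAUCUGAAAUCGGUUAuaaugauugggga
Of 581 tested miRNAs with a sequence in every library, 19 (3.27%) began 1 base upstream in all 4 libraries and 69 (11.9%) began off the annotated base in all 4. Bases 2 to 8 of the longer miR-29a-3p, written as RNA, match the seed of none of the 1679 RefSeq mature miRNAs, and the same holds for the shorter miR-29c-5p. The start of miR-29a-3p, miR-29c-3p and miR-29c-5p was the same in both genotypes, and the 1 change of start, in miR-29b-3p, was between the Ptf1a-/- libraries.

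The libraries held 3647145 to 4385834 counts. They were scaled by TMM, a factor per library that centres most miRNAs between libraries, and levels below are TMM-scaled CPM, counts scaled to a common library total. The TMM factor of Ptf1a-/- replicate 2 was 0.829, against 1.06 to 1.07 in the other libraries. Beyond counting noise, miRNA levels varied by 1.39% between the Ptf1a+/- libraries and by 22.6% between the Ptf1a-/- libraries (biological coefficient of variation). The total implied by the authors' CPM exceeded the listed counts, and the sources used here do not say what it counts. The excess amounted to 16.3 to 17.05% of that total for Ptf1a+/-, against 22.7 to 27.9% for Ptf1a-/-. This share moved with genotype, and its part in the results was not tested.

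The family was scarce in E18.5 retina. All 7 arms together had 163 and 185 counts in Ptf1a+/- replicates 1 and 2, and 200 and 163 counts in Ptf1a-/- replicates 1 and 2. That was 42.1, 39.3, 51.6 and 50.2 CPM, or 0.00416 to 0.00547% of the listed counts of a library. miR-29a-3p made up 66.7% of the family's 711 counts. By mean level it ranked 299 of 584 tested miRNAs, while miR-29b-3p, miR-29c-5p and miR-29c-3p ranked 503, 505 and 513. The last 3 had mean levels of 4.25, 4.21 and 4.05 CPM, within their spread of each other. Ligation and size selection favour some sequences, so the order of different miRNAs is less certain than the order of libraries for 1 miRNA.

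**Figure D1:**
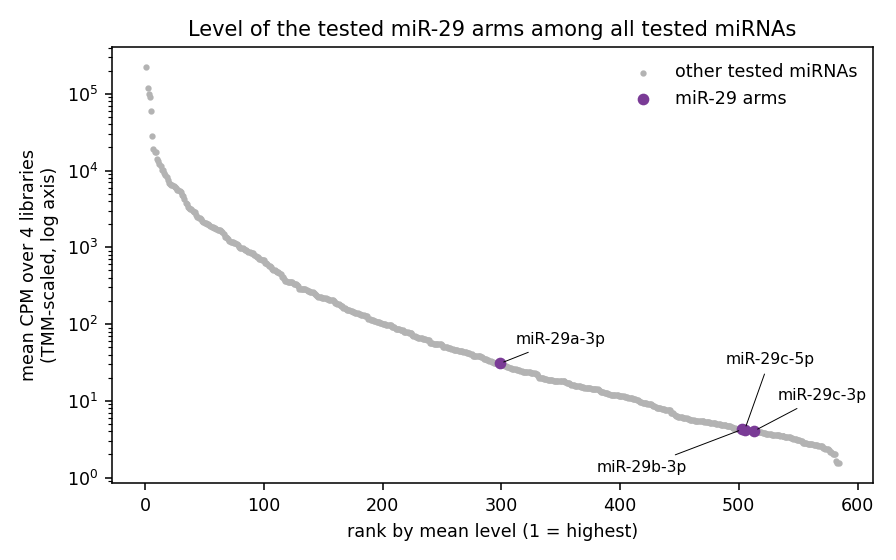
Mean level of the 584 tested miRNAs over the 4 libraries (TMM-scaled CPM, log axis) against their rank, with the 4 tested miR-29 arms in purple. miR-29a-3p lies near the middle at rank 299, and the other 3 arms lie between ranks 503 and 513.

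For the comparison of genotypes, a miRNA had to reach 10 counts in 2 or more libraries. The 584 that did were tested with edgeR's quasi-likelihood test and Benjamini-Hochberg adjustment, and called at an adjusted p under 0.05. Of the 7 members, 4 were tested. None was called higher and none lower, while 6.16% of all tested miRNAs were called higher and 3.6% lower in Ptf1a-/-. No member had an unadjusted p under 0.05 with DESeq2 or with edgeR at this scaling and filter, against 148 of 584 miRNAs with edgeR. None was called with DESeq2, library size as the only scaling, the authors' CPM total or a replicate block, which called 10.3, 2.74, 4.97 and 2.05% of all tested miRNAs. Under some other settings the edgeR 95% interval of the log2 fold change of miR-29a-3p lay above 0. It was 0.0036 to 0.88 with RLE size factors, 0.022 to 0.84 without a filter and 0.039 to 0.80 with 100 or more counts required. The edgeR adjusted p of miR-29a-3p was 0.197, 0.334 and 0.122 there, so it was not called. The 95% intervals given below show how large a change these counts still allow for each arm.

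mmu-miR-29a-3p, the main product of the family, had 102 and 122 counts in Ptf1a+/- replicates 1 and 2 and 129 and 121 counts in Ptf1a-/- replicates 1 and 2. On the TMM scale these were 26.3, 25.9, 33.3 and 37.2 CPM. The Ptf1a-/- levels were both higher than either Ptf1a+/- level, a pattern shared by 26.7% of all tested miRNAs. The mean levels were 26.1 ± 0.278 CPM in Ptf1a+/- and 35.3 ± 2.80 CPM in Ptf1a-/- (SD, n = 2 each). The log2 fold change was 0.43 ± 0.18 (SE; edgeR adjusted p = 0.206). The 95% interval ran from 0.989-fold to 1.83-fold, so this fit neither placed the level of miR-29a-3p above that in Ptf1a+/- nor showed it to be equal. In counts alone, the genotypes had a ratio of 1.34 with a 95% interval of 1.12 to 1.62 (exact binomial on summed counts). That interval covers counting error only, not the difference between libraries.

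How far the genotypes stood apart for miR-29a-3p depended on the scaling. With library size as the only scaling, its CPM levels were 28.0 and 27.8 in Ptf1a+/- and 35.3 and 30.9 in Ptf1a-/-, still without overlap. In the authors' deposited CPM its levels were 23.2 and 23.3 in Ptf1a+/- and 27.3 and 22.3 in Ptf1a-/-, and the genotypes overlapped. With the authors' CPM total as library size, all tested miRNAs shifted to a median log2 fold change of -0.34, and miR-29a-3p stood at 0.08 (edgeR adjusted p = 0.882). With library size alone the log2 fold change was 0.24 (adjusted p = 0.598) and the median of all miRNAs at -0.18. Relative to the median of all miRNAs, miR-29a-3p was 0.43 higher with TMM, 0.42 with library size and 0.42 with the authors' total. A change of scaling moves all miRNAs by nearly the same amount, so these offsets are alike by construction. Without Ptf1a-/- replicate 1 it was called higher (0.50, adjusted p = 0.0254), and without replicate 2 it was not (0.35, adjusted p = 0.117). In these fits the spread came only from the Ptf1a+/- pair, and 45.6 and 47.3% of tested miRNAs were called.

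**Figure D2:**
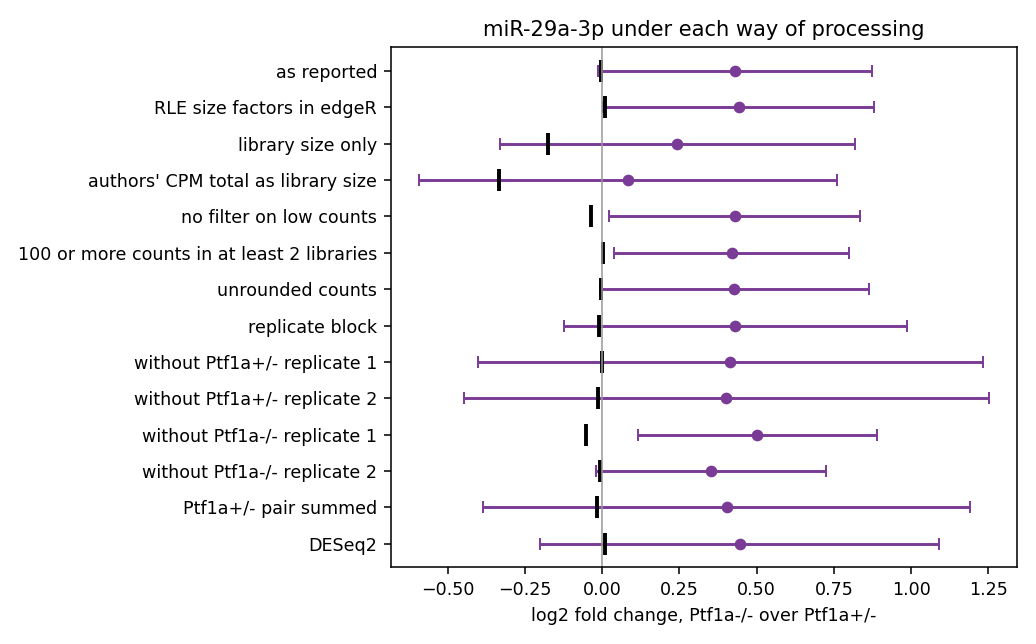
Log2 fold change of miR-29a-3p, Ptf1a-/- over Ptf1a+/-, under each way of processing (points; bars are 95% intervals), with the median of all tested miRNAs as a black tick. The estimate was above 0 in each, from 0.08 with the authors' CPM total to 0.50 without Ptf1a-/- replicate 1, and above the tick in each.

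mmu-miR-29b-3p, the product of both chromosomes, had 17 and 23 counts in Ptf1a+/- and 18 and 10 counts in Ptf1a-/- (4.39, 4.89, 4.65 and 3.08 CPM). Ptf1a-/- replicate 2 was the lowest library and replicate 1 lay between the Ptf1a+/- libraries. Its log2 fold change was -0.25 ± 0.34 (SE; edgeR adjusted p = 0.727), with a 95% interval of 0.472-fold to 1.51-fold.

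mmu-miR-29c-3p, which differs from miR-29a-3p by a single base, had 20 and 11 counts in Ptf1a+/- and 23 and 9 counts in Ptf1a-/- (5.16, 2.34, 5.94 and 2.77 CPM). Each genotype held 1 high and 1 low library, and the genotypes overlapped. Its log2 fold change was 0.30 ± 0.54 (SE; edgeR adjusted p = 0.781), and the interval of 0.495-fold to 3.06-fold was the widest of the tested arms. mmu-miR-29c-5p, from the other side of the same hairpin, had 18 and 16 counts in Ptf1a+/- and 21 and 11 counts in Ptf1a-/- (4.65, 3.40, 5.42 and 3.39 CPM). Here too each genotype held a higher and a lower library, with a log2 fold change of 0.17 ± 0.38 (SE; edgeR adjusted p = 0.819) and an interval of 0.593-fold to 2.14-fold.

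The untested members are 5p arms of miR-29a and miR-29b, which are usually degraded after the hairpin is cut. mmu-miR-29b-2-5p had 5 and 11 counts in Ptf1a+/- and 9 and 8 counts in Ptf1a-/-, so the genotypes overlapped. The ratio of Ptf1a-/- to Ptf1a+/- on summed counts was 1.28 with a counting interval of 0.608 to 2.70. mmu-miR-29b-1-5p had 0 and 2 counts in Ptf1a+/- and 0 and 3 counts in Ptf1a-/-. mmu-miR-29a-5p had 1 and 0 counts in Ptf1a+/- and 0 and 1 count in Ptf1a-/-. At 3 counts, the limit set by a count of 0, the level was 0.638 to 0.923 CPM depending on the library (counting error only), so differences in these last arms were not detectable at this depth.

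**Figure D3:**
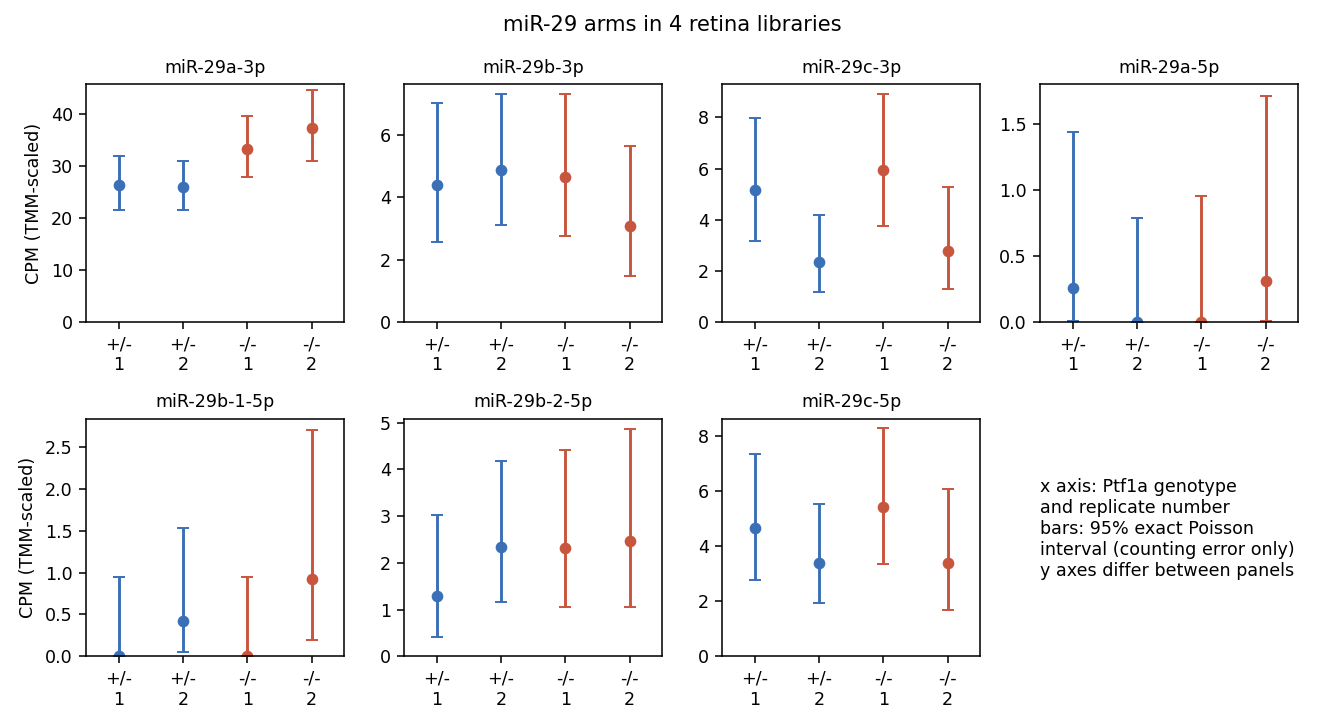
TMM-scaled CPM of the 7 miR-29 arms in the 4 libraries (blue, Ptf1a+/-; red, Ptf1a-/-), with 95% exact Poisson intervals for counting error and a separate y axis per panel. miR-29a-3p lies between 25.9 and 37.2 CPM with the Ptf1a-/- libraries above the others, and for miR-29b-3p, miR-29c-3p and miR-29c-5p the genotypes overlap.

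The balance of the arms differed between the hairpins. In Mir29a, the 3p arm had 474 counts and the 5p arm 2 over the 4 libraries. In Mir29c, the 3p arm had 63 counts and the 5p arm 66. The ratio of 3p to 5p for miR-29c, with 0.5 added to each count, was 1.11 and 0.697 in Ptf1a+/- and 1.09 and 0.826 in Ptf1a-/-. On the log2 scale the genotypes differed by 0.11 (two-sided exact permutation test, p = 1). With 2 libraries a genotype, the smallest p possible is 0.33. The 5p arms that tell the miR-29b genes apart had 33 counts for Mir29b-2 and 5 for Mir29b-1, so most of these 5p reads came from chromosome 1. These sums do not show which gene gave the shared miR-29b-3p.

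Reads that can come only from the chromosome 6 pair (miR-29a-3p, miR-29a-5p and miR-29b-1-5p) were 103 and 124 in Ptf1a+/- and 129 and 125 in Ptf1a-/-. Those only from the chromosome 1 pair (miR-29c-3p, miR-29c-5p and miR-29b-2-5p) were 43 and 38 in Ptf1a+/- and 53 and 28 in Ptf1a-/-. The ratio of chromosome 6 to chromosome 1 reads was 2.40 and 3.26 in Ptf1a+/- and 2.43 and 4.46 in Ptf1a-/-, and the genotypes overlapped. Ptf1a-/- replicate 2 was the highest of the 4, with the fewest chromosome 1 reads. The share of miR-29a-3p among the 3p reads was 73.4% and 78.2% in Ptf1a+/- and 75.9% and 86.4% in Ptf1a-/-, with exact (Clopper-Pearson) 95% intervals of 65.2 to 80.5%, 70.9 to 84.4%, 68.7 to 82.1% and 79.6 to 91.6%.

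Whatever their start, the 3p arms summed to 35.9 and 33.2 CPM in Ptf1a+/- and 43.9 and 43.1 CPM in Ptf1a-/-. The Ptf1a-/- libraries lay above the others, by 0.33 on the log2 scale (two-sided exact permutation test, p = 0.33, the smallest possible here). In the deposited CPM the sums were 31.6 and 29.8 in Ptf1a+/- and 36.0 and 25.8 in Ptf1a-/-. There the genotypes overlapped, and the difference with the authors' total was -0.01. In bulk tissue, fewer cells with a miRNA and less of it per cell cannot be told apart.

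Other miRNAs that rise as neurons differentiate had estimates in both directions. Of 20 such miRNAs (let-7 arms, miR-98, miR-124, miR-128, miR-26 and others), none was called higher, 1 was called lower and 19 did not pass. Their median log2 fold change was 0.06, against -0.0031 for all tested miRNAs and 0.24 for the 4 tested miR-29 arms. The last median turned to -0.31 without Ptf1a-/- replicate 1, to -0.13 without Ptf1a+/- replicate 2 and to -0.10 with the authors' total. Against the Ptf1a+/- mean, it was 0.40 in Ptf1a-/- replicate 1 and -0.28 in replicate 2. miR-132-3p, an activity-regulated neuronal miRNA, fell from 30.0 and 25.9 CPM in Ptf1a+/- to 15.0 and 13.5 CPM in Ptf1a-/- (log2 fold change -0.96 ± 0.22, edgeR adjusted p = 0.0472). That call was lost with DESeq2 (adjusted p = 0.101), with RLE size factors (0.0520), unrounded counts (0.0532), the authors' total (0.0570), no filter (0.0714), library size (0.0845), the replicate block (0.103) and the Ptf1a+/- pair summed (0.423), and without Ptf1a+/- replicate 1 or 2 (0.587 and 0.482). In these settings the log2 fold change ran from -0.88 to -1.30. Of the 8 let-7 guide arms, which time progenitor transitions, 7 had estimates above 0 and none passed (median 0.33). let-7a-5p, let-7e-5p, let-7f-5p and let-7g-5p lay above both Ptf1a+/- libraries in both Ptf1a-/- libraries, a pattern shared by 26.7% of all tested miRNAs. let-7b-5p, let-7c-5p, let-7d-5p and let-7i-5p lay below both Ptf1a+/- libraries in Ptf1a-/- replicate 1 and above both in Ptf1a-/- replicate 2. The let-7 estimates are on the TMM scale only, and the authors' total moved the median of all miRNAs to -0.34. Of the 11 listed outside let-7 and miR-98, 3 were above 0 and 8 below (median -0.17).

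Of 15 miRNAs that accompany proliferation (miR-17/92 clusters and others), none passed, and their median log2 fold change was 0.04. The smallest p-values were those of miR-20a-5p (0.42 ± 0.16, edgeR adjusted p = 0.183), miR-20b-5p (0.42 ± 0.22, 0.309) and miR-130b-3p (-0.21 ± 0.12, 0.382). miR-20a-5p thus had a fold change of the same size as miR-29a-3p. Without Ptf1a-/- replicate 1 or 2, miR-20a-5p was called higher (0.17 and 0.63), and without replicate 1 miR-130b-3p was called lower (-0.29), in the fits that called 45.6 and 47.3% of miRNAs. These lists describe the same 4 libraries, and the counts in them were not compared with that in the miR-29 family by a test.

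**Figure D4:**
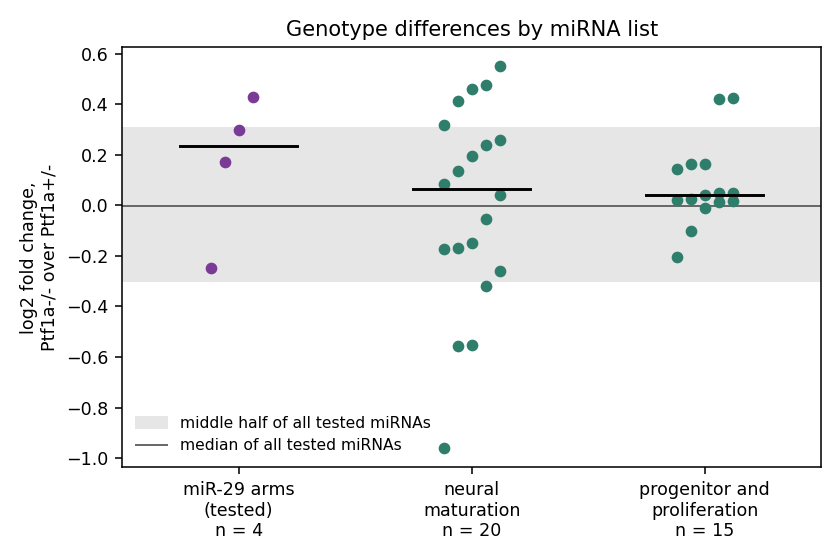
Log2 fold change, Ptf1a-/- over Ptf1a+/-, of the 4 tested miR-29 arms, 20 neural maturation miRNAs and 15 progenitor and proliferation miRNAs (points; black bars are medians), over the range of the middle of all tested miRNAs in grey (-0.30 to 0.31). The medians are 0.24, 0.06 and 0.04, and 3 of the 4 miR-29 arms lie inside the grey band.

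By measured levels, miR-598-3p had the profile most like that of miR-29a-3p. Likeness was the root mean square difference of centred log2 CPM over the 4 libraries, among 200 miRNAs outside the family with a mean of 100 CPM or more. miR-598-3p stood at 227, 225, 285 and 322 CPM in Ptf1a+/- replicates 1 and 2 and Ptf1a-/- replicates 1 and 2 (difference 0.0057). The next were let-7g-5p (0.045), miR-370-3p (0.050), miR-30a-5p (0.058) and miR-1839-5p (0.061). All of these had 4 points per profile, which share libraries and scaling. Counting error alone left miR-29a-3p between 27.8 and 39.6 CPM in Ptf1a-/- replicate 1 (exact Poisson interval). On the log2 scale that range is wider than the differences listed, so the counts do not resolve the order of these miRNAs.

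miR-29 is also abundant in connective tissue and muscle, so markers of other tissue that a dissected retina can hold were read in the same libraries. Of 6 vessel and mesenchyme miRNAs, 4 were tested and 1, miR-199a-5p, was called lower (-1.05 ± 0.22, edgeR adjusted p = 0.0430). miR-143-3p did not pass (-1.03 ± 0.25, edgeR adjusted p = 0.0638). It stood at 33.8 and 34.2 CPM in Ptf1a+/- and 13.2 and 20.6 CPM in Ptf1a-/-. miR-126a-5p went the other way (0.31 ± 0.28) and did not pass. The 6 summed to 621 and 639 CPM in Ptf1a+/- and 364 and 601 CPM in Ptf1a-/-. Most of that sum was the endothelial miR-126a-3p (555 ± 12.7 and 435 ± 156 CPM, SD, n = 2 each). The 3 striated muscle miRNAs did not pass and summed to 48.5 and 51.3 CPM in Ptf1a+/- and 65.0 and 70.2 CPM in Ptf1a-/-. On the TMM scale this sum was higher in the Ptf1a-/- libraries and highest in replicate 2, as was miR-29a-3p. Of the 3, only miR-206-3p was highest in Ptf1a-/- replicate 2, while miR-1a-3p and miR-133a-3p were highest in Ptf1a-/- replicate 1. The part of muscle in the miR-29 levels was not tested. miR-1a-3p stood at 19.9 and 24.0 CPM in Ptf1a+/- and 36.9 and 27.1 CPM in Ptf1a-/-. For miR-206-3p (20.7 and 21.7 against 15.5 and 38.2 CPM) and miR-133a-3p (8.005 and 5.53 against 12.6 and 4.93 CPM) the genotypes overlapped.

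Of 3 pigment epithelium miRNAs, 1, miR-204-3p, was called lower (-0.54 ± 0.12, edgeR adjusted p = 0.0436), and their sum was 3203 to 3728 CPM, led by miR-204-5p. Of 4 miRNAs of lens and surface epithelium, 3 were tested and 1, miR-200b-3p, was called lower (log2 fold change -3.47 ± 0.50, edgeR adjusted p = 0.0124). It stood at 6.46 and 6.59 CPM in Ptf1a+/- and 0.258 and 0.923 CPM in Ptf1a-/-, where it had 1 and 3 counts. It thus reached the filter only in Ptf1a+/-. miR-203-3p went the other way, at 100 and 90.6 CPM in Ptf1a+/- and 124 and 111 CPM in Ptf1a-/- (0.30 ± 0.14). It did not pass. The 4 summed to 227 to 305 CPM, led by miR-184-3p, with miR-205-5p at 0 in every library. Of 5 blood cell miRNAs, 2 were tested and none passed. Their estimates had opposite signs, 0.15 for miR-486a-5p and -0.63 for miR-142a-3p. The 5 summed to 67.1 to 98.8 CPM, highest in Ptf1a-/- replicate 2 and led by miR-486a-5p. In the same fits, miR-486a-5p was called higher without Ptf1a-/- replicate 1 (0.42). Without replicate 2, miR-1a-3p was called higher (0.74), and miR-126a-3p (-0.77), miR-184-3p (-0.94) and miR-204-5p (-0.16) lower. Their part in the miR-29 levels was not tested.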

How the data were processed

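Libraries were made from gel-cut RNA (18 to 30 nt, 1 µg total RNA) with a second gel cut of cDNA (60 to 80 nt), per the labels' protocols. Per the submitters' processing notes, bcl2fastq 2.20.0.422 was used. The sources used here do not name the aligner, counter or build. The table of estimated counts deposited by the authors had 5.73 to 7.84% of values per library that were not whole, and these were rounded. The deposited CPM table holds these counts over 1 total per library that exceeds the listed counts. The deposited table of most frequent sequences is other, text data, written against miRBase22 per the file headers.

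The test was edgeR 4.0.16 in R 4.3.3 (quasi-likelihood, TMM, genotype only, all 4 libraries). It was tried on simulated data in which both genotypes had the same spread. Those data cannot show how it behaves at the unlike spreads found here (1.39% in Ptf1a+/- and 22.6% in Ptf1a-/-). Errors of log2 fold changes are SE from that fit. DESeq2 1.42.0, other scalings and filters, left-out libraries, a replicate block and a summed Ptf1a+/- pair were alternatives. No molecular identifiers are described, and the intervals and limits drawn from counts alone cover counting error only. Named were all members, members of the maturation and proliferation lists that passed (otherwise the 3 smallest p-values), the most abundant marker per tissue and the 5 nearest profiles, while the other markers, miR-6338 and the let-7 group were chosen after their values were seen. The members and lists were chosen with earlier results of these data known.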

Additional observations from a re-analysis of the deposited data

How the results depend on the processing

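The 4 tested arms gave 49 estimates under 13 alternatives: 41 kept direction and side of the threshold, 7 changed direction and 1 was called (miR-29a-3p without Ptf1a-/- replicate 1, 0.50, adjusted p = 0.0254, the lowest of a range up to 0.882). With 100 or more counts required, only miR-29a-3p was left to test. The changes of direction were those of miR-29c-3p (-0.030 with the authors' CPM total, -0.23 and -0.39 without Ptf1a+/- replicate 2 or Ptf1a-/- replicate 1, range with 1 library left out up to 0.90) and miR-29c-5p (-0.0031 with library size, -0.16 with the authors' total, -0.07 and -0.23 without those libraries). The marker miR-486a-5p went to -0.050 with library size, -0.21 with the authors' total and -0.16 without Ptf1a-/- replicate 2, with up to 0.42 without replicate 1. The summed 3p arms went to -0.012 with the authors' total and lay between 0.26 and 0.37 with 1 library left out. The members' median lay between -0.31 and 0.40 with 1 library left out, and the number of members called higher between 0 and 1. Arm ratios moved from -0.76 to 1.08 (miR-29a), -0.22 to 0.45 (miR-29c) and -1.42 to 1.55 (29b-1-5p over 29b-2-5p) with 1 library left out, reversals being -0.76 and -0.68, -0.22 and -0.09, and -0.56 and -1.42.

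Of all miRNAs, 36 were called higher and 21 lower. These counts were 4 and 12 with library size, 2 and 27 with the authors' total, 12 and 9 without a filter, and 0 and 1 with the Ptf1a+/- pair summed. With 1 library left out they ran from 0 to 137 higher and from 0 to 137 lower. With the replicate block they were 5 and 7, and no member was called. Same-numbered libraries shared a correlation of 0.05 over miRNAs. The Ptf1a+/- libraries differed by little beyond counting noise, so this value cannot show whether the numbers pair libraries. The labels state no pairing, and the main fit used none. Beyond what removing data or changing the scale does by construction, the cause was not tested. Depth limits the 5p arms of miR-29a and miR-29b-1, with 2 and 5 counts in all. Without a filter on low counts the fits for the 3 untested arms had SEs of 0.46 to 2.51 on the log2 scale.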
